A study of Mus musculus with 6 samples.

Results

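Serotonin receptor transcripts were followed in bulk RNA from the prefrontal cortex (PFC) of a tauopathy mouse model. The 10 genes Htr1a, Htr1b, Htr1f, Htr2a, Htr2c, Htr3a, Htr4, Htr5a, Htr6 and Htr7 were taken by their gene symbols from the 54429 rows of each count table. All 10 passed the filter on low counts that left 20409 genes for testing.

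Serotonin reaches the PFC through axons of raphe neurons, and cortical cells read it through receptors of several families. Receptors encoded by Htr1a, Htr1b, Htr1f and Htr5a couple to Gi/o proteins and lower cyclic AMP, those of Htr2a and Htr2c couple to Gq/11 and phospholipase C, and those of Htr4, Htr6 and Htr7 couple to Gs and raise cyclic AMP. Htr3a encodes a subunit of a cation channel that serotonin opens, the only family of the group that is not coupled to G proteins. In cortex, Htr2a is known for its abundance in pyramidal neurons and Htr3a for marking a class of interneurons that do not express parvalbumin or somatostatin.

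Each of the 3 groups held 2 libraries from PFC tissue of mice aged 6 months on a B6C3H/F1 background. WT + vehicle mice were wild-type littermates given saline with a little DMSO. Tau + vehicle mice carried the PS19 transgene, human tau of the 1N4R isoform with the P301S substitution, and received the same injections. Tau + UNC0642 mice carried the same transgene and received UNC0642, an inhibitor of the histone H3 lysine 9 methyltransferases EHMT1 and EHMT2, at 1 mg/kg once daily for 3 days, with tissue taken 24 h later. The transgene of this line is driven by the prion protein promoter, and no wild-type mice given UNC0642 were among these libraries. Vehicle was part of every treatment, so all groups had been injected. The libraries are described as biological duplicates of whole tissue lysate, so a lower level of a transcript can mean fewer cells of a type or less RNA per cell, and the data cannot tell these apart.

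Counts assigned to genes ranged from 17005664 to 28972176 per library. Pan-neuronal markers summed to 5316 to 6212 CPM (counts relative to the library total, with TMM scaling), and none of the 5 was at 0 in any library. A pair of libraries stood apart. In Tau + vehicle replicate 2, 10 markers of striatal projection neurons summed to 254 CPM against 98.0 to 123 CPM in the other 5 libraries, and 4 oligodendrocyte markers to 4828 CPM against 1244 to 2565 CPM. All 8 striatal markers that passed the filter were higher in Tau + vehicle than in WT + vehicle by the call defined below. In that comparison 9.81% of all genes were called in either direction. Between Tau + UNC0642 and Tau + vehicle 7 of the 8 were called lower, beside 7.69% of all genes called in either direction. In WT + vehicle replicate 1, Sp8, a transcription factor of interneurons derived from the caudal ganglionic eminence, stood at 15.7 CPM against 1.54 to 2.50 CPM elsewhere. Calb2, another marker of these interneurons, was at 68.8 CPM there against 9.62 to 12.8 CPM elsewhere. Gad1, a marker of interneurons in general, was at 449 CPM against 266 to 316 CPM. Xist and the Y-linked genes differed between libraries. WT + vehicle replicate 1 and both Tau + UNC0642 libraries had Uty at 52.6 to 53.5 CPM and Xist at 0.118 to 0.197 CPM, whereas the other 3 had Xist at 191 to 317 CPM and Uty at 0 to 0.0781 CPM. Treatment and sex therefore cannot be told apart between Tau + UNC0642 and Tau + vehicle, while WT + vehicle held a library of each kind.

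Per kilobase of exon, Htr2a was the most abundant of the 10 receptor transcripts in this cortex, and Htr6 and Htr4 were the least abundant. Levels are CPM per kilobase over all annotated exonic bases, given as the mean ± SD over the 6 libraries. Htr2a stood at 18.9 ± 2.21, followed by Htr5a at 6.15 ± 0.553 and Htr1a at 5.10 ± 0.922. Htr1f at 3.61 ± 0.407 and Htr3a at 3.60 ± 0.181 came next, then Htr1b at 2.71 ± 0.354, Htr7 at 2.67 ± 0.139 and Htr2c at 2.26 ± 0.411. The lowest were Htr6 at 1.09 ± 0.462 and Htr4 at 0.775 ± 0.309. Every library had Htr2a above Htr5a, with no overlap of their ranges. The ranges of Htr3a and Htr1b, and those of Htr2c and Htr6, were also apart. The other 6 neighbouring pairs in this order had overlapping ranges, so their order was not resolved beyond the spread between libraries. The place of Htr2c depended on the length used. Its annotated exons span 9328 bases over all transcripts, while its longest coding transcript has 4883 bases, and with the latter its mean was 4.33 and its rank moved from 8 to 4.

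**Figure D1:**
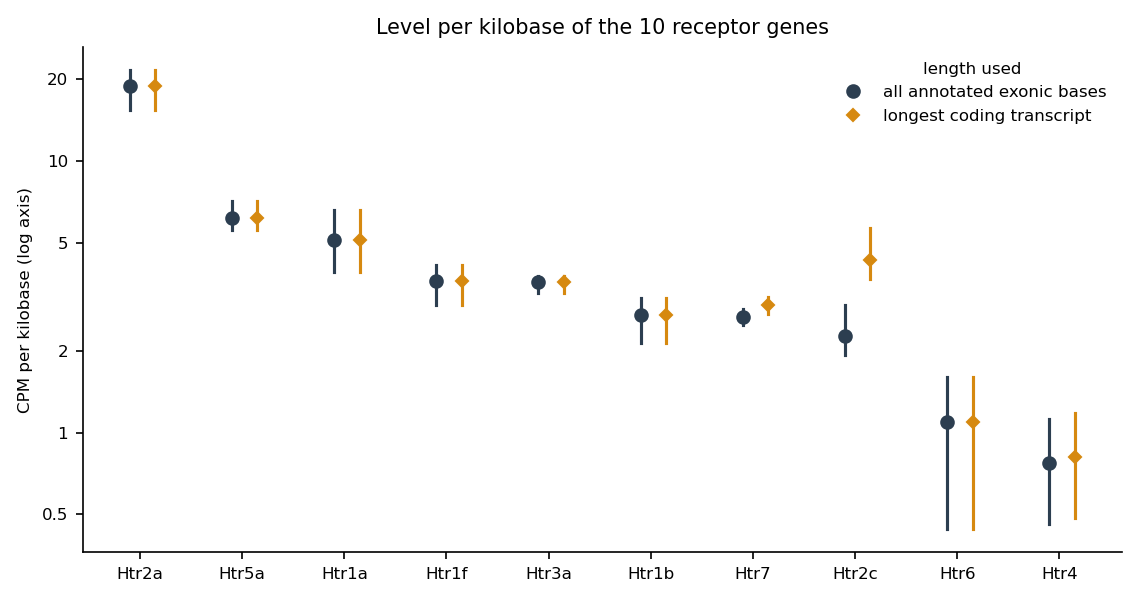
Level of each receptor gene in CPM per kilobase on a log axis, with the mean of 6 libraries as a symbol and the lowest to highest library as a line. Circles use all annotated exonic bases and diamonds the longest coding transcript; Htr2a lies above all others under both, and only Htr2c moves far between them.

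The balance between receptor classes was similar in every library. Gq/11-coupled receptors made up 43.1% to 48.0% of the summed level per kilobase of the 10 genes, and Gi/o-coupled receptors 37.0% to 38.2%. The channel subunit Htr3a contributed 6.66% to 9.22% and the Gs-coupled receptors 8.25% to 10.4%. Htr2a alone gave 38.1% to 44.1%. With the longest coding transcripts as lengths, the Gq/11 share was 45.2% to 49.5%.

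A gene was called different between groups at a fold change of at least 1.2 with an unadjusted p below 0.05 in edgeR's quasi-likelihood test, the limits that the study's methods state, and adjusted p-values are Benjamini-Hochberg values over all 20409 genes. Of the 10 receptor genes, only Htr4 was called, and in 2 of the 3 comparisons. It was higher in Tau + vehicle than in WT + vehicle, where 9.81% of all genes were called in either direction. It was also higher in Tau + UNC0642 than in WT + vehicle, where 9.47% of all genes were called. No receptor gene was called between Tau + UNC0642 and Tau + vehicle, with 7.69% of all genes called there. A share of 1 gene in 10 is near these backgrounds. No receptor gene had an adjusted p below 0.05, the smallest being 0.258 for Htr4 in Tau + vehicle against WT + vehicle.

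Estimates of the receptor genes lay on both sides of 0 in every comparison. The median over the 10 was 0.02 on the log2 scale for Tau + vehicle against WT + vehicle, -0.05 in Tau + UNC0642 against Tau + vehicle and 0.02 in Tau + UNC0642 against WT + vehicle, beside medians over all genes of -0.00011, -0.0023 and -0.012. In the first comparison 6 estimates were above 0 and 4 below, in the second 4 and 6, and in the third 5 and 5. The CPM ranges of the groups did not overlap for 1 receptor gene in the first comparison, where 43.2% of all genes had ranges apart. They were apart for 3 receptor genes in the second (41.3% of all genes) and for 6 in the third (44.4% of all genes). The precision bounds larger changes, since the 95% confidence interval lay within a 2-fold change in either direction for 8, 9 and 8 of the 10 genes in the 3 comparisons. Htr6 was the exception in all 3, joined by Htr4 in both comparisons with WT + vehicle. The comparisons share groups, so their values are not independent.

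**Figure D2:**
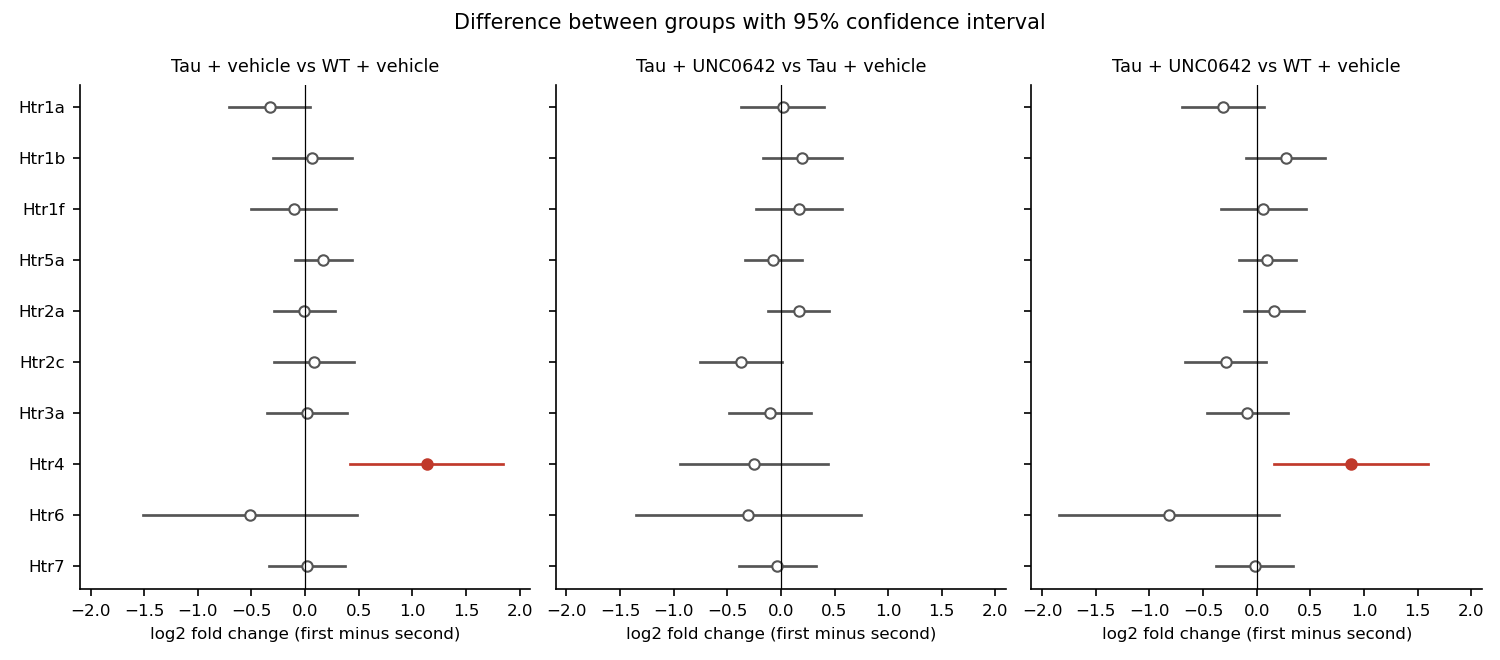
Log2 fold change of each receptor gene (x axis, first group minus second) with its 95% confidence interval in the 3 comparisons. Filled red symbols are called genes, Htr4 in the comparisons with WT + vehicle, and open symbols are genes that were not called; the interval of Htr6 is the widest.

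Among the Gi/o-coupled receptors, Htr1a (chr13:105443639-105448122, + strand, GRCm38) is a gene of 1 exon whose product is the autoreceptor of raphe neurons and an inhibitory receptor of pyramidal neurons. It stood at 23.3 and 29.6 CPM in WT + vehicle, at 24.4 and 17.5 CPM in Tau + vehicle and at 20.01 and 22.5 CPM in Tau + UNC0642. Each treated or transgenic library other than Tau + vehicle replicate 1 was below both WT + vehicle libraries. The log2 fold change was -0.33 (SE 0.17, unadjusted p = 0.0802, adjusted p = 0.455) in Tau + vehicle and -0.31 (SE 0.17, unadjusted p = 0.0951, adjusted p = 0.499) in Tau + UNC0642, both against WT + vehicle and neither called. The first value ranged from -0.60 without Tau + vehicle replicate 1, where it was called (unadjusted p = 0.0085), to -0.11 without Tau + vehicle replicate 2. It was also called without WT + vehicle replicate 1, at -0.49 (unadjusted p = 0.0229). Against Tau + vehicle, the Tau + UNC0642 level of Htr1a differed by 0.02 on the log2 scale, with a 95% confidence interval from -0.37 to 0.40.

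Htr5a (chr5:27842149-27855088, + strand) encodes a receptor with a high affinity for lysergic acid diethylamide and ranked next after Htr2a per kilobase. Its levels were 32.1 and 30.0 CPM in WT + vehicle, 38.3 and 31.3 CPM in Tau + vehicle, and 34.6 and 31.9 CPM in Tau + UNC0642. The Tau groups overlapped with each other and with WT + vehicle, and the largest of its 3 log2 fold changes was 0.17 (SE 0.12, adjusted p = 0.596). Without Tau + vehicle replicate 2 this value became 0.31 and was called (unadjusted p = 0.0422). Htr1b (chr9:81628291-81633828, - strand), which encodes a presynaptic receptor on axon terminals, stood at 10.1 and 13.5 CPM in WT + vehicle, 13.1 and 11.6 CPM in Tau + vehicle and 14.8 and 13.7 CPM in Tau + UNC0642. Both Tau + UNC0642 libraries were above the other 4. The differences were 0.20 (SE 0.17, adjusted p = 0.767) from Tau + vehicle and 0.27 (SE 0.17, adjusted p = 0.553) from WT + vehicle, neither called. With a term for sex-linked expression they were 0.57 (unadjusted p = 0.0397) and 0.49 (unadjusted p = 0.0246). Each Tau group held libraries of a single kind by sex-linked transcripts, so this term rested mainly on the 2 WT + vehicle libraries. It cannot separate sex from treatment. Without WT + vehicle replicate 2 the difference from WT + vehicle was 0.49. The gene shares 852 exonic bases with the antisense gene D430036J16Rik, which had 36 to 54 counts per library against 202 to 367 for Htr1b. The libraries were made with a stranded kit, but the strand setting of the counting is not given in the sources used here. Htr1f (chr16:64924729-65105854, - strand), the receptor targeted by lasmiditan, had 133 to 272 counts per library and a level of 7.61 to 10.7 CPM. Its group means lay between 8.67 and 9.84 CPM, the groups overlapped in every comparison, and the largest of its log2 fold changes was 0.17 (SE 0.18, adjusted p = 0.834).

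**Figure D3:**
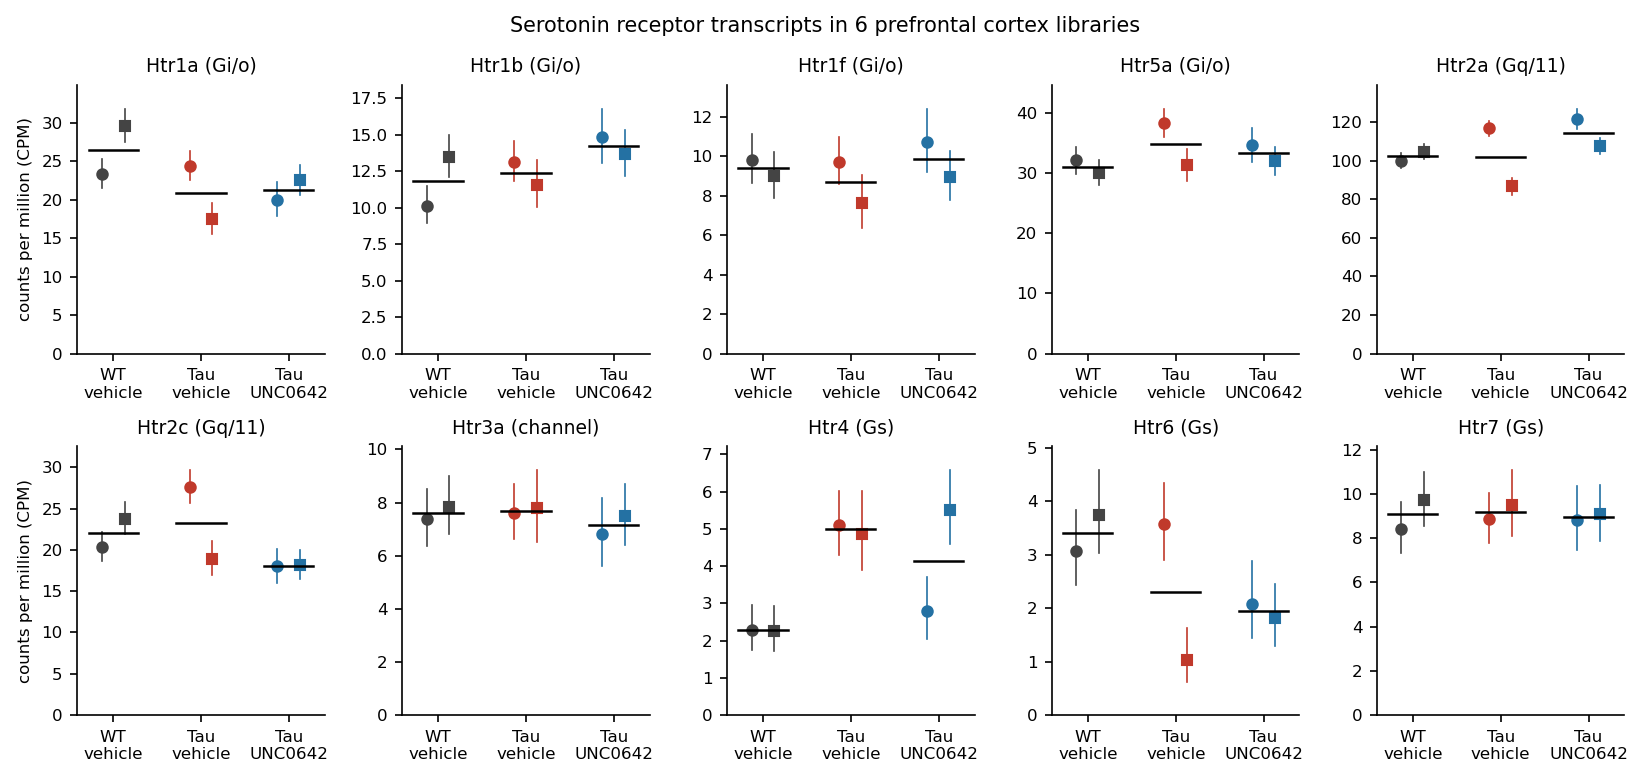
CPM of the 10 receptor genes in each library (circles for replicate 1, squares for replicate 2) with exact 95% Poisson intervals as thin lines and group means as bars; each panel starts at 0. Htr4 is higher in both Tau + vehicle libraries than in both WT + vehicle libraries, and Htr6 differs most between the replicates of Tau + vehicle.

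The Gq/11-coupled pair Htr2a and Htr2c encode the closest relatives among the 10 genes, and their transcripts share the longest identical stretch found between any of them, 26 bases in the coding sequence of the third transmembrane helix. It is shown because a read is assigned to one of these genes by the bases around such a stretch. In these reference windows (GRCm38 with GENCODE M21, 5′ to 3′) the shared bases are in capitals and the flanks of 24 bases on either side are in lower case.
Htr2a, chr14:74645032-74645105, + strand: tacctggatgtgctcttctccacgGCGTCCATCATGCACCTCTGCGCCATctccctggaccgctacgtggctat
Htr2c, chrX:147169614-147169687, + strand: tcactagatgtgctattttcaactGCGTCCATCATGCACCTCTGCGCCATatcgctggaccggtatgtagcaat
The flanks differ at 7 bases before the run and at 6 bases after it. The next longest run between a pair of the 10 genes was 16 bases, for Htr2c and Htr5a.

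Htr2a (chr14:74640840-74709494, + strand), the receptor through which classical hallucinogens act, stood at 99.98 and 105 CPM in WT + vehicle, 117 and 86.6 CPM in Tau + vehicle and 121 and 107 CPM in Tau + UNC0642. Tau + vehicle held the lowest library of the 6 and Tau + UNC0642 the highest. The group means were 102 ± 3.29, 102 ± 21.2 and 114 ± 9.90 CPM (SD, n = 2 each). The log2 fold change was -0.01 (SE 0.13) between Tau + vehicle and WT + vehicle, with a 95% confidence interval from -0.29 to 0.28. For Tau + UNC0642 it was 0.17 (SE 0.13, adjusted p = 0.744) against Tau + vehicle and 0.16 (SE 0.13, adjusted p = 0.651) against WT + vehicle. The CPM ranges of Tau + UNC0642 and WT + vehicle were apart. The difference from Tau + vehicle was called without Tau + vehicle replicate 1, at 0.40 (unadjusted p = 0.0046), and was -0.03 without Tau + vehicle replicate 2.

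Htr2c (chrX:146962513-147197277, + strand) encodes a receptor whose transcript is edited by ADAR enzymes, and its introns host several microRNA genes that had 0 to 6 counts per library. It stood at 20.3 and 23.8 CPM in WT + vehicle, 27.6 and 18.9 CPM in Tau + vehicle, and 17.999 and 18.1 CPM in Tau + UNC0642. Both Tau + UNC0642 libraries were below the other 4, though Tau + vehicle replicate 2 was within 1 CPM of them. The log2 fold change in Tau + UNC0642 was -0.37 against Tau + vehicle (SE 0.17, unadjusted p = 0.0535, adjusted p = 0.567) and -0.29 against WT + vehicle (SE 0.17, unadjusted p = 0.121, adjusted p = 0.533), neither called. Against Tau + vehicle it was -0.62 and called without Tau + vehicle replicate 2 (unadjusted p = 0.0023), -0.06 without Tau + vehicle replicate 1, and called at -0.37 and -0.38 without WT + vehicle replicate 1 or 2 (unadjusted p = 0.0474 and unadjusted p = 0.048). With a term for sex-linked expression it was -0.20 (unadjusted p = 0.497), though that term rested mainly on the WT + vehicle libraries. Htr2c lies on the X chromosome, and the groups of this comparison differed in sex-linked transcripts, whose part in the result was not tested further. Tau + vehicle and WT + vehicle differed by 0.08 (SE 0.17, adjusted p = 0.871). The 3 genes with the most similar levels over the 6 libraries, by root mean square difference in centred log2 CPM among 16378 genes, were Hkdc1 (0.0427), Abcg4 (0.0436) and Vegfb (0.045). Between Tau + UNC0642 and Tau + vehicle Abcg4 was called, with a log2 fold change of -0.36 (unadjusted p = 0.0384, adjusted p = 0.537), whereas Hkdc1 at -0.31 (adjusted p = 0.622) and Vegfb at -0.31 (adjusted p = 0.596) were not.

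The within-library ratio of Htr2a to Htr1a counts, which no scaling affects, was chosen with the values known. There were 4.28 and 3.53 Htr2a counts per Htr1a count in WT + vehicle, 4.78 and 4.96 in Tau + vehicle, and 6.07 and 4.77 in Tau + UNC0642. All 4 Tau libraries were above both WT + vehicle libraries. An exact two-sided permutation test gave p = 0.333 for either Tau group against WT + vehicle, the smallest that 2 libraries against 2 allow. Any ratio with the groups apart gives this p, and this ratio was chosen with its values known. The test therefore cannot decide whether the groups differ. How many other gene pairs were apart in the same way was not counted.

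Htr3a (chr9:48899213-48911099, - strand), the channel subunit, was among the 2 steadiest of the receptor genes. It stood at 7.37 and 7.85 CPM in WT + vehicle, 7.62 and 7.79 CPM in Tau + vehicle, and 6.81 and 7.50 CPM in Tau + UNC0642, from 115 to 213 counts. Highest and lowest libraries differed 1.15-fold. Its log2 fold changes were 0.02, -0.10 and -0.09 in the 3 comparisons, with SEs of 0.17 each. Summed CPM of 11 markers of interneurons derived from the caudal ganglionic eminence, the class in which Htr3a is found, ranged from 788 to 880. Of the 11, 1 rose and 3 fell in Tau + vehicle against WT + vehicle, 2 fell in Tau + UNC0642 against Tau + vehicle, and 2 rose and 5 fell in Tau + UNC0642 against WT + vehicle, where 9.81%, 7.69% and 9.47% of all genes were called. Without WT + vehicle replicate 1, a check added after the values were seen, none of the 11 was called in the first comparison, 2 fell in the second and 1 fell in the third. Ndnf, a marker of neurogliaform cells, fell in Tau + UNC0642 by 0.99 on the log2 scale against WT + vehicle (SE 0.29, unadjusted p = 0.0066, adjusted p = 0.235). It stood at 39.7 and 37.7 CPM in WT + vehicle, 43.8 and 18.7 CPM in Tau + vehicle, and 18.7 and 20.3 CPM in Tau + UNC0642. The untreated Tau + vehicle replicate 2 was thus as low as the treated libraries. Vip, another of the 11 markers, went the other way. Its levels were 37.2 and 43.4 CPM in WT + vehicle, 42.8 and 51.9 CPM in Tau + vehicle, and 48.1 and 52.1 CPM in Tau + UNC0642. In WT + vehicle replicate 1, where Sp8 and Calb2 were high, Htr3a at 7.37 CPM was within the range of the other libraries. The summed CPM of the 11 markers, 856 in that library, was within their range too and does not show the high Sp8 and Calb2.

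Htr4 (chromosome 18, 62324204 to 62496577, + strand) encodes a Gs-coupled receptor of forebrain neurons and was the receptor gene called between genotypes, 1 of 10 beside 9.81% of all genes. WT + vehicle libraries had 58 counts each, or 2.29 and 2.27 CPM. Tau + vehicle libraries had 143 and 85 counts, or 5.11 and 4.87 CPM. Tau + UNC0642 libraries had 47 and 125 counts, or 2.78 and 5.51 CPM. Every Tau library was above both WT + vehicle libraries, and the Tau + UNC0642 replicates lay on either side of the Tau + vehicle pair. The exact 95% Poisson intervals of the Tau + UNC0642 replicates did not overlap, at 2.04 to 3.70 CPM and 4.59 to 6.57 CPM. Such intervals take each count as independent.

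In Tau + vehicle, Htr4 was 2.19-fold higher than in WT + vehicle (log2 fold change 1.13, SE 0.32, 95% confidence interval 0.42 to 1.84, unadjusted p = 0.0052, adjusted p = 0.258). The call held with any of the 6 libraries left out, at 1.09 to 1.17, and under all 10 other settings of scaling, filter, test and covariate, at 1.06 to 1.14. Over those 10 settings the adjusted p ranged from 0.0075 with no filter on low counts to 0.410 with the sex-linked term. Without Tau + vehicle replicate 2, the library with high striatal and oligodendrocyte markers, the value was 1.17 (unadjusted p = 0.0135). With the sex-linked term it was 1.13 (unadjusted p = 0.0204).

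In Tau + UNC0642 the Htr4 level was 1.84-fold that of WT + vehicle (log2 fold change 0.88, SE 0.32, unadjusted p = 0.0212, adjusted p = 0.321). This call rested on replicate 2. Without it the value was 0.29 (unadjusted p = 0.392), and without replicate 1 it was 1.28 (unadjusted p = 0.0011). The call was also lost without WT + vehicle replicate 1 (unadjusted p = 0.0542) or replicate 2 (unadjusted p = 0.0565), which leaves 1 library in that group, and with the sex-linked term (unadjusted p = 0.0673). Against Tau + vehicle, Htr4 differed by -0.25 (SE 0.31, 95% confidence interval -0.94 to 0.44, unadjusted p = 0.437, adjusted p = 0.861). That value was -0.84 and called without Tau + UNC0642 replicate 2 (unadjusted p = 0.0267) and 0.14 without replicate 1, so these 2 treated libraries gave no common direction.

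**Figure D4:**
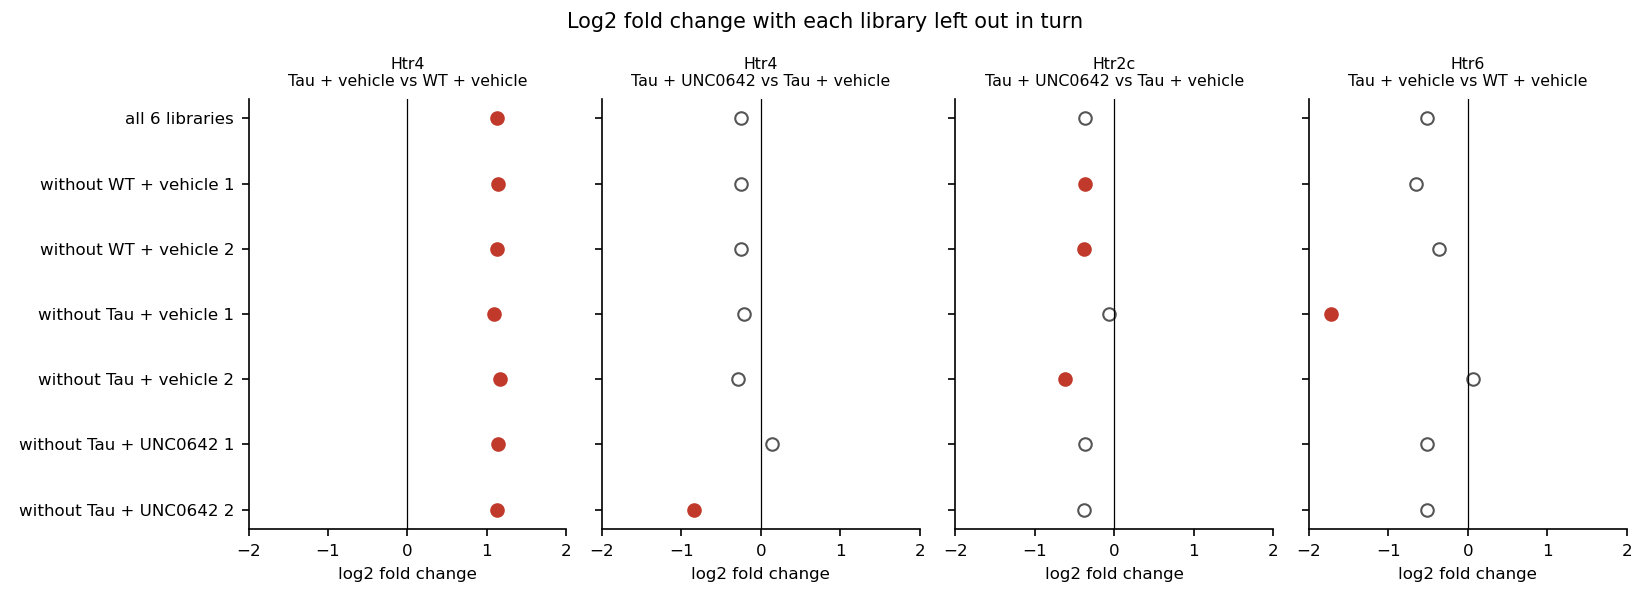
Log2 fold change (x axis) with all 6 libraries and with each library left out in turn, for Htr4 in 2 comparisons, Htr2c and Htr6. Filled red symbols are called; Htr4 in Tau + vehicle against WT + vehicle stays between 1.09 and 1.17, while Htr6 runs from -1.72 to 0.07.

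The genes whose levels followed Htr4 most closely were Xdh, which encodes xanthine dehydrogenase, Dusp4, a phosphatase of MAP kinases, and Kl, which encodes klotho, with root mean square differences of 0.112, 0.143 and 0.189. Chosen for that likeness, all 3 shared the low WT + vehicle libraries, the high Tau + vehicle libraries and the split between the Tau + UNC0642 replicates. Xdh stood at 6.27 and 7.03 CPM in WT + vehicle, 12.01 and 13.2 CPM in Tau + vehicle, and 7.58 and 14.2 CPM in Tau + UNC0642. Dusp4 stood at 8.83 and 9.88, 18.8 and 18.5, and 13.9 and 22.5 CPM. Their log2 fold changes in Tau + vehicle against WT + vehicle were 0.92 (adjusted p = 0.247) and 0.99 (adjusted p = 0.133). For Kl the value was 0.76 (adjusted p = 0.418), which was not called. Kl is also a marker of the choroid plexus. The 11 markers of that tissue summed to 257 and 253 CPM in WT + vehicle, 266 and 353 CPM in Tau + vehicle and 280.1 and 262 CPM in Tau + UNC0642, most of it from Enpp2, which oligodendrocytes also express. Of the 5 that were tested, Enpp2 rose by 0.30 in Tau + vehicle against WT + vehicle (adjusted p = 0.353) and Aqp1 fell by 3.54 (adjusted p = 0.268). Kcnj13 at -0.74 (adjusted p = 0.599) was not called. Aqp1 was at 9.93 CPM in WT + vehicle replicate 1 and at 0.265 to 0.710 CPM in the other 5 libraries. Ttr, the most abundant transcript of that tissue, had 0 counts in 4 libraries and 6 and 24 counts in the Tau + vehicle libraries. The part of these cells in the Htr4 value was not tested.

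**Figure D5:**
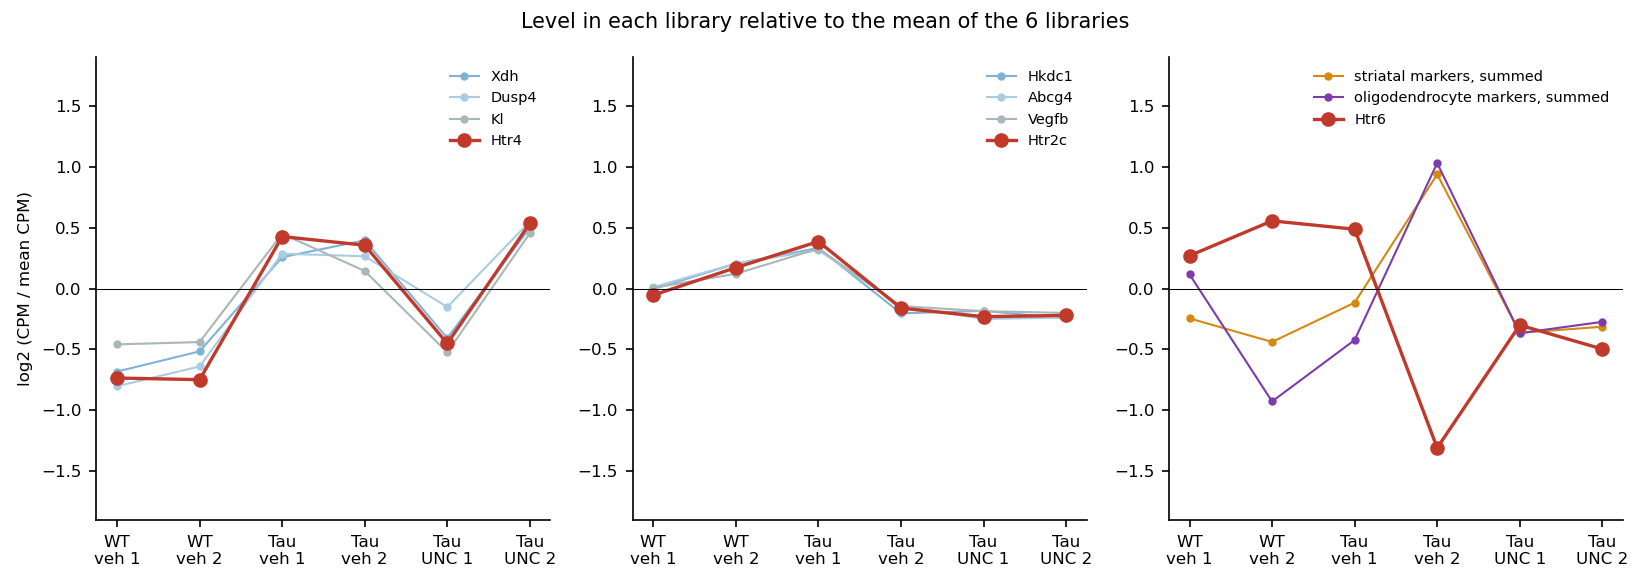
Level in each library as log2 of CPM over the mean of the 6 libraries. Left and centre, Htr4 and Htr2c with the 3 genes most similar to each; right, Htr6 with the summed CPM of striatal and of oligodendrocyte markers, where Htr6 is lowest in Tau + vehicle replicate 2 and both marker sums are highest there.

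Htr6 (chr4:139061108-139075570, - strand) encodes a Gs-coupled receptor of the primary cilium of neurons, and was the most variable of the 10 genes. It stood at 3.07 and 3.75 CPM in WT + vehicle, 3.58 and 1.03 CPM in Tau + vehicle, and 2.07 and 1.81 CPM in Tau + UNC0642. Tau + vehicle replicate 2 rested on 18 counts, and its exact 95% Poisson interval of 0.611 to 1.63 CPM lay apart from that of replicate 1, 2.91 to 4.35 CPM. The highest library exceeded the lowest 3.64-fold. Between Tau + vehicle and WT + vehicle the log2 fold change was -0.51 (SE 0.45, adjusted p = 0.668). It was -1.72 and called without Tau + vehicle replicate 1 (unadjusted p = 0.0024), and 0.07 without replicate 2. Htr6 is known to be abundant in striatum. Summed striatal markers were highest in the library where Htr6 was lowest, and the part of tissue makeup in the Htr6 level was not tested.

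Both Tau + UNC0642 libraries had less Htr6 than both WT + vehicle libraries, with a log2 fold change of -0.82 (SE 0.46, 95% confidence interval -1.85 to 0.21, unadjusted p = 0.107, adjusted p = 0.515). The spread in this fit is shared with Tau + vehicle. Fitted on the 4 libraries of these groups alone, the value was again -0.82 and was called (unadjusted p = 0.0236). It was also called with no filter on low counts (unadjusted p = 0.013). Without Tau + vehicle replicate 1 or replicate 2 it stayed at -0.82. These refits reuse the same libraries, so they are not independent support for a difference that the main fit did not call. The share of all genes called in them is not given here. Against Tau + vehicle the value was -0.30 (SE 0.47, adjusted p = 0.9), which became -0.89 and was called without Tau + vehicle replicate 2 (unadjusted p = 0.0267) and 0.90 without replicate 1. Htr7 (chr19:35958734-36057507, - strand), a Gs-coupled receptor with a role in circadian phase shifts, was as steady as Htr3a. Its levels were 8.44 and 9.73, 8.87 and 9.50, and 8.82 and 9.09 CPM in WT + vehicle, Tau + vehicle and Tau + UNC0642. Its 3 log2 fold changes were 0.01, -0.03 and -0.02, with 95% confidence intervals between -0.39 and 0.37.

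Among the other serotonin receptor genes of the mouse, Htr2b had 28 to 47 counts and Htr5b 6 to 34 counts per library, and neither was called. Htr1d had 2 to 11 counts, and Htr3b, the partner subunit of Htr3a, had 0 counts in 4 libraries and 2 in the others, where a count of 0 allows up to 3 counts. Both fell below the filter.

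Genes that make, move and degrade serotonin were read from a list of 14, of which 12 were tested. None was called between Tau + UNC0642 and Tau + vehicle, where 7.69% of all genes were called. Tph1, which encodes a tryptophan hydroxylase, fell in Tau + vehicle against WT + vehicle by 1.58 on the log2 scale (SE 0.69, adjusted p = 0.393). Tph1 was at 1.42 CPM in WT + vehicle replicate 1 and at 0.237 to 0.469 CPM in the other 5. Spr, a sepiapterin reductase that supplies the cofactor of the hydroxylases, rose in Tau + UNC0642 against WT + vehicle by 0.26 (SE 0.11, adjusted p = 0.395). Maoa, which encodes an enzyme of serotonin breakdown, stood at 36.5 to 44.6 CPM and was not called. The transcripts that define raphe neurons were scarce, with Fev at 0 counts in all libraries and Slc6a4, the serotonin transporter, at 0 to 6 counts.

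Few signalling partners of the receptors were called, where 9.81%, 7.69% and 9.47% of all genes were called in the 3 comparisons. At those shares a list of 8 to 13 genes would hold few calls in any case. Of 9 genes of the Gq pathway none was called in any comparison. Of 8 Gi/o genes, Kcnj6, a subunit of the potassium channels that Gi/o-coupled receptors open, fell in Tau + UNC0642 by 0.29 against Tau + vehicle (SE 0.13, adjusted p = 0.549) and by 0.31 against WT + vehicle (SE 0.13, adjusted p = 0.364). It stood at 50.5 and 65.9 CPM in WT + vehicle, 58.9 and 56.0 CPM in Tau + vehicle and 49.4 and 44.4 CPM in Tau + UNC0642, so that the lowest WT + vehicle library was close to the treated ones. Gnai3, an inhibitory G protein alpha subunit, rose against WT + vehicle by 0.27 (SE 0.10, adjusted p = 0.338). Of 13 Gs genes, only Prkaca, the catalytic alpha subunit of protein kinase A, was called. It fell in Tau + UNC0642 against Tau + vehicle by 0.31 (SE 0.09, unadjusted p = 0.0063, adjusted p = 0.418), from 143 and 126 CPM to 108 and 109 CPM, and WT + vehicle was at 120.1 and 135 CPM. Among 10 tested partners and editing enzymes, Cav1, which encodes caveolin and is abundant in endothelial cells, fell in Tau + vehicle by 0.53 (SE 0.15, adjusted p = 0.259) and in Tau + UNC0642 by 0.45 (SE 0.15, adjusted p = 0.292), both against WT + vehicle. The 3 endothelial markers summed to 90.9 and 82.2 CPM in WT + vehicle, 59.8 and 63.3 CPM in Tau + vehicle and 66.8 and 81.6 CPM in Tau + UNC0642, and their part in the Cav1 value was not tested. Adarb1, an enzyme that edits the Htr2c transcript, stood at 238 to 285 CPM and was not called.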

How the data were processed

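The deposited counts are whole reads per gene for 6 libraries, made by the authors with ribosomal RNA depletion, a stranded kit, adapter trimming with Cutadapt, alignment with TopHat2 and counting with featureCounts. The submitters' processing notes also name SAMtools, edgeR and mm10, without versions. The strand setting of the counting is not given in the sources used here. Depth was 17005664 to 28972176 counts per library, and intervals and limits from counts cover counting error only. They take each count as an independent read, which was not tested. Many of the lowest counts were even, such as 2, 0, 6, 2, 0 and 6 for Slc6a4 over the 6 libraries. If counts are not independent, these intervals and limits are too narrow. In 2 libraries 26 gene names had been turned into dates, none of them a receptor gene. Genes were tested with edgeR 4.0.16 (R 4.3.3): filterByExpr, TMM scaling and the quasi-likelihood test over all 6 libraries with 1 mean per group, 3 residual degrees of freedom and Benjamini-Hochberg adjustment over 20409 genes. A gene was called at a fold change of at least 1.2 and p below 0.05. On simulated counts with 200 genes changed 2-fold, 97.5% (Tau + vehicle against WT + vehicle) and 97% (Tau + UNC0642 against Tau + vehicle) of those genes were called. Of the unchanged genes 4.49% and 4.47% were called. The changed genes were drawn above a minimum mean count and given the spread typical of their level. Those shares therefore need not hold for genes with a wider spread, such as Htr6. limma 3.58.1 and DESeq2 1.42.0 were alternatives. Gene positions and lengths came from GENCODE M21 (GRCm38), in which 53669 of the 54429 row names matched a single gene.

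Replicate numbers do not mark shared animals. Same-numbered libraries did not deviate together, with correlations of -0.034, -0.021 and -0.0033 over 20409 genes for the 3 pairs of groups, so no pairing was used. Replicates within a group differed by more than sampling noise. With 2 mice a group, p-values rest on the spread between these few libraries, moderated toward the spread of all genes tested. Intervals and p-values therefore use more than the 3 residual degrees of freedom and borrow part of their precision from other genes. The receptor genes and the gene lists were chosen with earlier results of these data known. The genes named from each list were those called in any comparison, smallest p first, up to 4 a list, and otherwise the most abundant. Ttr, Fev and Slc6a4 were named beside them as defining markers after their values were seen. Calb2 and Vip were also named after their values were seen. Genes similar to a receptor gene were the 3 with the smallest root mean square difference among those with a mean of at least 1 CPM, for the receptor gene with the smallest p in each of the first 2 comparisons.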

Additional observations from a re-analysis of the deposited data

How the results depend on the processing

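Htr4 in Tau + vehicle against WT + vehicle was the only receptor gene called under every alternative fit. In that comparison 2 receptor genes were called with library size alone, with no filter and with the sex-linked term (Htr1a and Htr4 each time). At an adjusted p below 0.05 the number was 0. Between Tau + UNC0642 and Tau + vehicle 1 was called with no filter (Htr2c) or the sex-linked term (Htr1b). Against WT + vehicle, Tau + UNC0642 had 4 called with no filter (Htr1a, Htr2c, Htr4 and Htr6). It had 2 in a fit of those groups only (Htr4 and Htr6) and 0 at an adjusted p below 0.05. The replicate block, a term for the replicate number, changed no call, and gave Htr4 1.14, -0.30 and 0.84 on the log2 scale in the 3 comparisons. The cause of these changes was not tested. The share of all genes called in each fit is not given here, so these counts are no result about the receptor genes. The sex-linked term rested mainly on the WT + vehicle libraries and does not separate sex from treatment. The median over the receptor genes ran from -0.13 to 0.11, -0.15 to 0.19 and -0.02 to 0.06 with 1 library left out, the first 2 moving by more than the replicate SD of 0.116 without Tau + vehicle replicate 1. Small estimates changed sign. In Tau + vehicle against WT + vehicle these were, with library size alone, Htr1b (-0.00062), Htr3a (-0.053) and Htr7 (-0.054); with at least 10 counts in every library, Htr3a (-0.0059) and Htr7 (-0.0079); and with the sex-linked term, Htr1b (-0.090), Htr3a (-0.025) and Htr7 (-0.076). With that term Htr7 became 0.17 in Tau + UNC0642 against Tau + vehicle and 0.093 against WT + vehicle, where Htr1f became -0.018. With 1 library left out, the signs of Htr1b (-0.12 to 0.29), Htr1f (-0.30 to 0.053), Htr2a (-0.24 to 0.19), Htr2c (-0.22 to 0.33), Htr3a (-0.032 to 0.064), Htr6 (-1.72 to 0.071) and Htr7 (-0.089 to 0.12) changed in the first comparison. In the second those of Htr1a (-0.20 to 0.29), Htr2a (-0.033 to 0.40), Htr4 (-0.84 to 0.14), Htr5a (-0.21 to 0.087), Htr6 (-0.89 to 0.90) and Htr7 (-0.085 to 0.011) changed, and in the third those of Htr1f (-0.069 to 0.19) and Htr7 (-0.12 to 0.087). A left-out library leaves its group with 1, assumed to vary like the others. Htr4 and Htr6, with as few as 47 and 18 counts in a library, are the least precise.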
